A study of Danio rerio with 8 samples.

Results

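The genes described here are the ligands, receptors, secreted inhibitors and intracellular effectors of Wnt signalling in cells sorted from zebrafish embryos. Members were all probe sets whose single gene symbol in the platform annotation begins with wnt, fzd, axin, dkk, sfrp, ctnnb, tcf7, dvl, lrp5, lrp6 or gsk3, or is apc, lef1, frzb or wif1. This gave 39 genes, represented by 46 probe sets, of 8793 genes with a symbol of their own on the array, and apc, lrp5 and lrp6 were not analysed here because the annotation gave none of them a probe set of its own. Each gene is represented by its probe set with the highest mean log2 signal. The rule used gene symbols and no measured difference, but it was set with earlier results of these data known.

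All embryos were of the AB background, carried a cd41-GFP transgene and were taken at 35 hours post fertilization (hpf). In this line green fluorescent protein (GFP) is driven by the promoter of itga2b, the integrin gene also called cd41, a marker of thrombocytes and of the first blood stem and progenitor cells. Living cells with and without GFP were separated by flow cytometry and passed through the sorter again for purity, and the RNA was amplified over 2 rounds and hybridised to Affymetrix zebrafish arrays. The labels name no other allele or treatment for either fraction, so the GFP-negative fraction is the remainder of the same transgenic embryos and holds many tissues. There were 4 arrays of each fraction, in 4 pairs by sort. Neither the number of embryos per sort nor their clutches are labelled, so the p-values cover the spread between these sorts, possibly only a technical one.

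Wnt ligands are secreted proteins that bind Frizzled receptors (the fzd genes) on the cell surface. In the canonical branch, Dishevelled proteins (dvl) then inhibit a complex of Axin, Apc and the kinase Gsk3 that otherwise marks beta-catenin (ctnnb1 and ctnnb2) for destruction, and the stabilised beta-catenin joins Tcf and Lef factors on target genes. Other branches steer cell polarity and movement without beta-catenin. In vertebrate embryos these signals pattern the neural tube, somites, tail bud and neural crest, and they also act in the emergence of blood stem cells.

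The make-up of the fractions is described first, and its part in the differences below was not tested. Marker genes of the nervous system were lower in the GFP-positive fraction for 17 of 17 genes, and their summed signal was 3218 to 36510 on GFP-positive and 90580 to 117600 on GFP-negative arrays. Muscle markers fell in 10 of 11 cases (sums 1805 to 6650 against 42730 to 108900), and markers of connective tissue, fin and notochord fell in 9 of 12 and rose in 1 (2379 to 7999 against 20230 to 27080). Of 5 endothelial markers 3 fell (2243 to 6633 against 16680 to 20910), and of 7 pronephric markers 3 fell (1055 to 3785 against 4360 to 7090). Of 8 epidermal markers 2 fell, and their sums overlapped (7640 to 18770 against 13530 to 21970). Among all tested probe sets, 18.4% were called lower and 13% higher. Only 3 pronephric markers were tested. Of those not tested, cdh17, pax8 and slc12a3 differed by 0.57, 0.97 and 1.00 on the log2 scale, and atp1a1a.4 by -1.13. Myeloid markers rose in 8 of 9 cases (223400 to 368600 against 19100 to 50440). Erythroid markers fell in 4 of 7 cases, though their sums overlapped (234300 to 279300 against 137900 to 268400). Most of these sums came from the globin genes hbae3 and hbbe3, which were not called. In the thrombocyte and blood progenitor list, 1 of 8 rose and 2 fell (47330 to 65790 against 17100 to 19050). Most of these sums came from the gene that rose, f13a1b (42916 to 60521 against 10262 to 11664), while tal1 and lmo2 fell. The genes itga2b and runx1 were dim on all 8 arrays, so the gate is not checked by the gene that drives it. No marker was at 0, and those dim on all GFP-positive arrays were neurog1 and nova2 (neural), myod1 (muscle), twist1a, prrx1a, prrx1b and tbxta (connective tissue, fin and notochord), and pax8 and lhx1a (pronephros). Of these, myod1, twist1a and pax8 were dim on all GFP-negative arrays too, and tbxta was above the percentile on only 1 of them.

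Among the GFP-positive arrays, that of pair 3 resembled the GFP-negative arrays most. Its mean correlation with them was 0.795, against 0.529 to 0.642 for the other GFP-positive arrays. It gave the highest of the 4 GFP-positive signals for 15 of 17 neural and 9 of 11 muscle markers. The same held for 9 of 12 markers of connective tissue, fin and notochord, 4 of 5 endothelial and 1 of 9 myeloid markers. How often this array was highest over all probe sets was not counted, here or for the genes below. Within the GFP-positive fraction, the array of pair 1 was least like the rest. Its mean correlation with the other GFP-positive arrays was 0.728, against 0.8295 to 0.8675 for those of pairs 2 to 4. GAPDH control signal at the 3' end over that at the 5' end, a measure that rises with shortened RNA, exceeded its GFP-negative partner's value for all 4 GFP-positive arrays. It was 86.6, 31.3, 100 and 45.6 on the GFP-positive arrays of pairs 1 to 4, and 75.4, 22.6, 18.2 and 21.6 on the GFP-negative arrays. The part of these measures in the differences below was not tested.

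Of the 39 genes 22 were tested, and 13 of these were called lower in the GFP-positive fraction by limma (59.1%), among 9801 tested probe sets of which 18.4% were called lower and 13% higher. None was called higher and 9 were not called. At an unadjusted p under 0.05, 0 of the 22 were higher and 15 lower, beside 17.4% and 26.7% of all tested probe sets. The called genes were wnt11, fzd2, fzd7a, fzd7b, fzd8a, fzd10, wif1, axin2, dvl2, dvl3a, ctnnbip1, lef1 and tcf7l1b. Differences are GFP-positive minus GFP-negative log2 signals, fitted with limma over all tested probe sets with the pair as a block, and a call means an adjusted p under 0.05. A fall can reflect fewer cells of a type or less RNA per cell, which cannot be told apart in sorted bulk samples.

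To be tested, a gene needed at least 4 of 8 signals over the 40th percentile of their arrays, and a signal under that percentile is called dim. A gene bright only on the GFP-negative arrays passes by being bright there, so the share of tested genes overstates the fall. Over all 39 genes with no filter, 13 were called lower (33.3%) and 0 higher, where 11.8% of 15502 probe sets were lower and 8.90% higher. That set lacks lef1 and includes sfrp1a. The shares of all probe sets, here and elsewhere, count every probe set, while each member is its gene's probe set with the highest mean signal. Among genes above the percentile on all 8 arrays, 4 of 12 were called lower, where 14.4% of 6684 such probe sets were lower and 13% higher. The median difference was -0.55 over all 39 genes and 0.05 over all 15502 probe sets. For 13 of 39 genes (33.3%) every GFP-positive signal lay below every GFP-negative signal, a pattern found in 13.8% of all probe sets, and for 0 every signal lay above, found in 13%. A fall in 4 of 4 pairs was found for 18 genes (46.2%), against 22.8% of all probe sets, and a rise in 4 of 4 pairs for 0, against 22.1%.

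**Figure D1:**
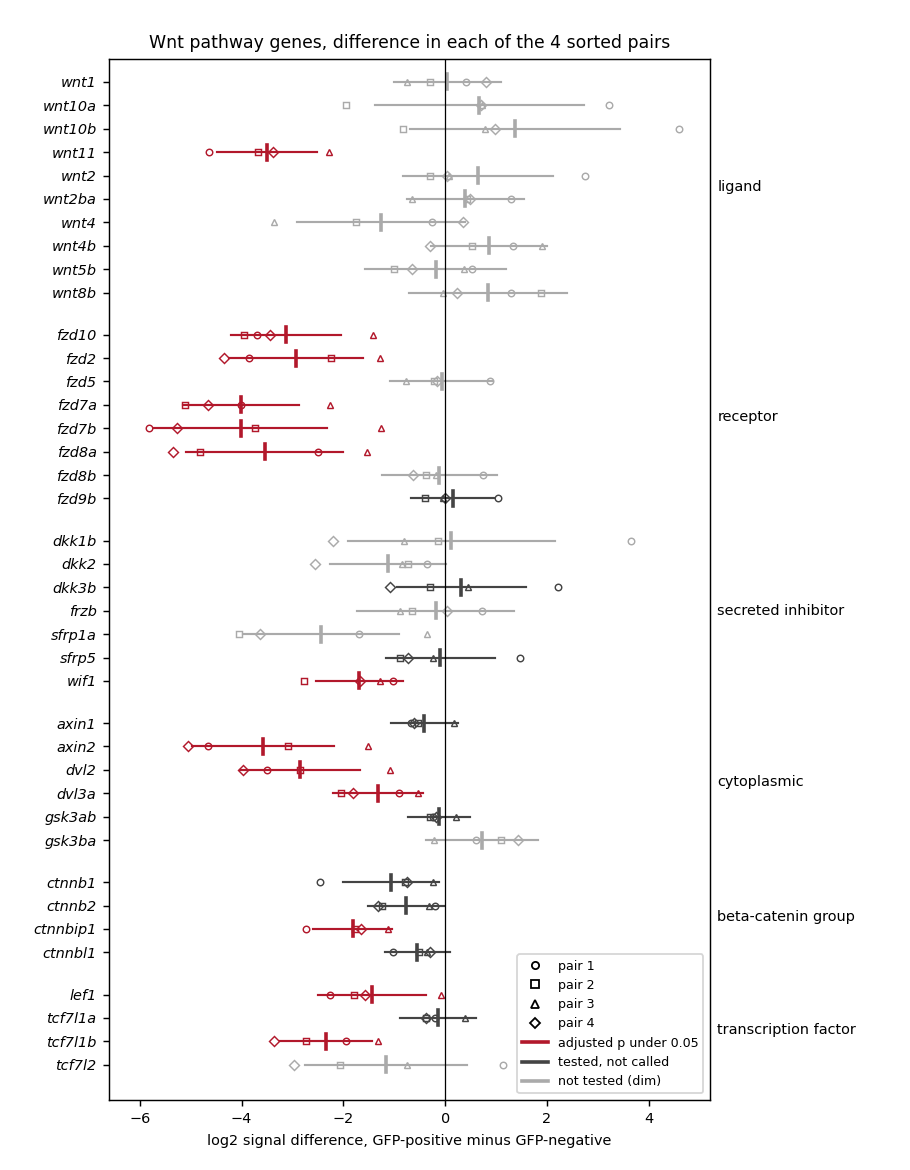
Log2 signal difference (GFP-positive minus GFP-negative, x axis) of each of the 39 Wnt pathway genes (y axis, by role). Symbols are the 4 sorted pairs, thick ticks the mean and lines the 95% confidence interval. The 13 called genes all lie left of 0, with the pair 3 triangle nearest 0 in 12 of them, and the dim ligands scatter around 0 with wide intervals.

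**Figure D2:**
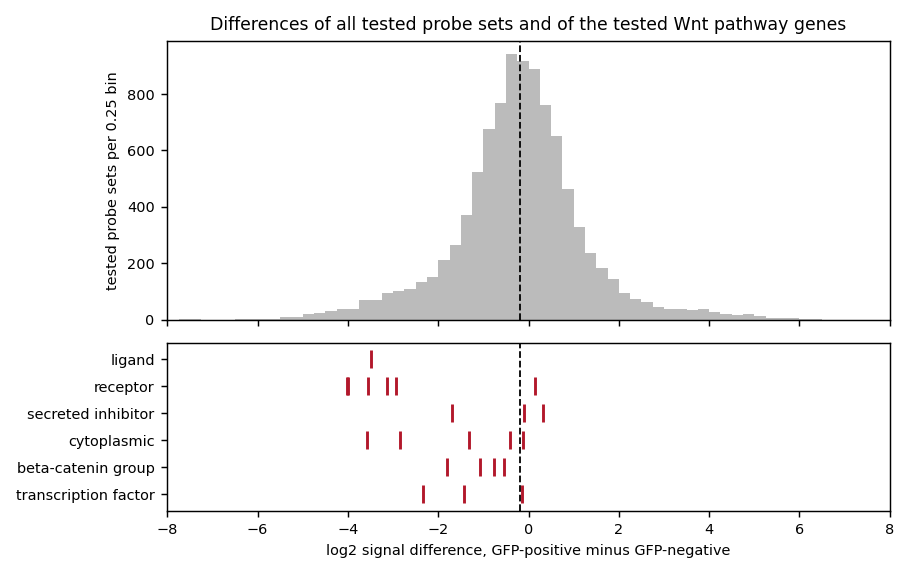
Histogram of the fitted log2 differences of all 9801 tested probe sets (upper panel, count per bin of 0.25) above the differences of the 22 tested Wnt pathway genes by role (lower panel, 1 tick per gene). The dashed line is the median of all tested probe sets, -0.18. Ticks of the 5 receptors called lower, of 6 tested, lie at -2.93 or lower, and 18.4% of all tested probe sets were called lower. The highest tick, dkk3b, lies at 0.32.

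Frizzled proteins are the receptors that bind Wnt ligands. Of 8 receptor genes on the array 6 were tested. Of these, 5 were called lower and 1 was not called, beside 18.4% of all tested probe sets called lower. That share also stands beside the counts called lower in the other roles below. For fzd2, fzd7b and fzd8a only 2 GFP-positive signals were above the percentile, but all 4 GFP-negative signals were. The duplicate genes fzd7a and fzd7b, receptors used in both canonical and movement signalling in zebrafish, differed by -4.01 and -4.02 on the log2 scale. Signals of fzd7a (Entrez gene 30369, a number likewise given for some members below) were 709, 225, 2135 and 386 on the GFP-positive arrays of pairs 1 to 4. On the GFP-negative arrays they were 11357, 7804, 10272 and 9703. The fractions did not overlap, and the highest GFP-positive signal was that of pair 3. The fold was 16.1 (SE of the log2 difference 0.48, n = 4 pairs, 95% interval -5.14 to -2.87, limma adjusted p = 0.0028).

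For fzd7b (30412) the signals were 95.4, 281, 1525 and 121 in the GFP-positive fraction and 5353, 3731, 3637 and 4699 in the GFP-negative fraction, again without overlap. Only 2 of the 4 GFP-positive signals were above the percentile. For genes dim in 2 or more GFP-positive samples, the fold is given as a bound, with the dim arrays set no lower than their percentile. On this basis fzd7b was at least 11.3-fold lower (adjusted p = 0.0084). Every such bound, here and below, is a point estimate that leaves out the spread between arrays, so the fold could be smaller. Another fzd7b probe set, dim on all GFP-positive arrays, differed by -0.70 and was not called (adjusted p = 0.22). Without pair 3 the differences of fzd7a and fzd7b were -4.59 and -4.94, and without pair 1 that of fzd7b was -3.42. The mean of both fzd7b probe sets differed by -2.36.

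The receptor gene fzd8a (58073) had signals of 700.4, 109.8, 805 and 88.8 on GFP-positive and 3934, 3103, 2336 and 3595 on GFP-negative arrays. Pairs 1 and 3 kept a clear GFP-positive signal while pairs 2 and 4 were dim, and the fractions did not overlap. It was at least 8.93-fold lower (log2 difference -3.55, SE 0.65, adjusted p = 0.0091), or -4.22 on the log2 scale without pair 3 and -2.95 without pair 4. A second fzd8a probe set failed the filter and differed by -0.71. With the mean of both probe sets the difference was -2.13 and the call was lost (adjusted p = 0.059).

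For fzd10 (30366), a receptor gene of the dorsal neural tube in vertebrates, the GFP-positive signals were 390.3, 179.6, 1009 and 316 and the GFP-negative signals 5076, 2780.2, 2685 and 3436. All 8 signals were above the percentile and the fractions did not overlap. The log2 difference was -3.13 (SE 0.46, 95% interval -4.21 to -2.05, adjusted p = 0.005), a fold of 8.74, and -3.70 without pair 3. A second fzd10 probe set differed by -0.84 and was not called (adjusted p = 0.30), and the mean of both gave -1.98, with the call kept.

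Signals of fzd2 (30370), the remaining called receptor, were 46.5, 168, 553 and 43.5 in the GFP-positive and 668, 799, 1341 and 887 in the GFP-negative fraction. Every GFP-positive signal was lower, but that of pair 3 came close to the lowest GFP-negative one. The gene was at least 3.45-fold lower (log2 difference -2.93, SE 0.55, adjusted p = 0.0098).

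Not every receptor was low. The gene fzd9b (58023), another Frizzled receptor gene, had signals of 752, 329, 408 and 416 on GFP-positive and 365, 434, 419.6 and 419 on GFP-negative arrays. These overlapped, with the GFP-positive array of pair 1 highest. The log2 difference was 0.15 (95% interval -0.67 to 0.96, adjusted p = 0.77). Without replicate 1 its sign turned, as it did with the mean of its 2 probe sets, of which the other differed by -1.17 (adjusted p = 0.21). The 2 receptor genes that failed the filter, fzd5 and fzd8b, had signals of 43.1 to 254 and differences of -0.07 and -0.11.

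**Figure D3:**
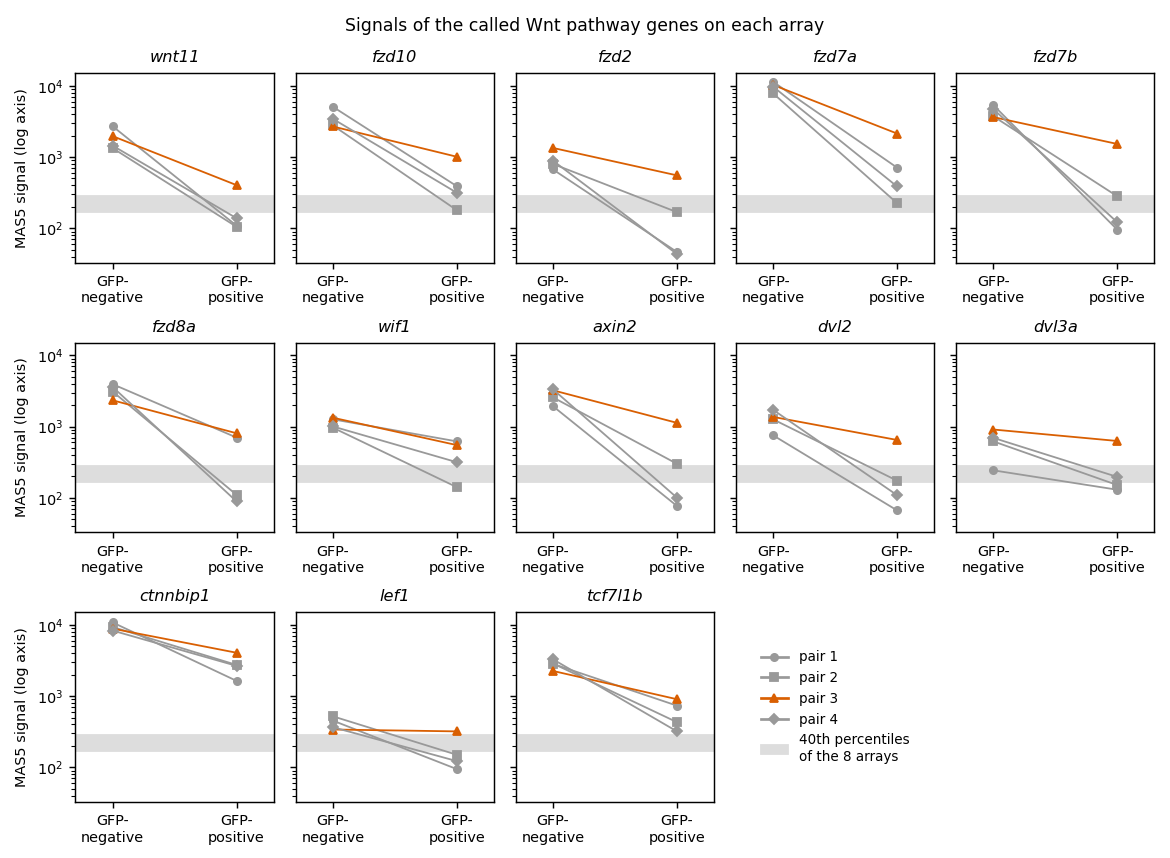
MAS5 signals (log axis) of the 13 called genes on the GFP-negative and GFP-positive arrays, with lines joining the arrays of a pair. Pair 3 is drawn in orange, and the grey band spans the 40th percentiles of the 8 arrays, 168 to 283. In each gene the GFP-negative signals spread less than the GFP-positive signals, though the GFP-negative signals of dvl3a run from 243 to 908. Pair 3 has the highest GFP-positive signal in 12 of 13 genes.

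Among the ligands, wnt11 was the only one of 10 genes that passed the filter. It codes for a ligand known mainly for signalling without beta-catenin, in cell movement and organ formation. Its signals (30283) were 109, 105, 403 and 138 on the GFP-positive and 2698, 1332, 1962 and 1443 on the GFP-negative arrays. No GFP-positive signal reached the GFP-negative range, and only that of pair 3 was above the percentile. The gene was at least 7.47-fold lower (log2 difference -3.49, SE 0.41, 95% interval -4.47 to -2.51, adjusted p = 0.0028), and -3.90 on the log2 scale without pair 3.

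The other 9 ligand genes, wnt1, wnt2, wnt2ba, wnt4, wnt4b, wnt5b, wnt8b, wnt10a and wnt10b, were not tested. Their signals ran from 6.06 to 299 with a median of 45.8. Of these, 7 were dim on all 8 arrays, while wnt1 was above the percentile on 1 array of each fraction and wnt4b on 1 GFP-positive array. Their differences ran from -1.26 (wnt4) to 1.38 (wnt10b), and in the fit with no filter the adjusted p was 0.25 or more. Signals of wnt10b were 208, 10.3, 46.4 and 30.9 on GFP-positive and 8.59, 18.2, 27.1 and 15.8 on GFP-negative arrays, with the largest difference in pair 1. Whether these ligands differ between the fractions was not detectable at this signal.

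Of 7 secreted inhibitor genes 3 were tested and 1 was called lower. The gene wif1 (30476) codes for Wnt inhibitory factor, which binds ligands outside the cell. Its signals were 619, 141, 549 and 316 in the GFP-positive and 1263, 965, 1331 and 1004 in the GFP-negative fraction. The fractions did not overlap, and here pair 1 and not pair 3 had the highest GFP-positive signal. The GFP-positive array of pair 2 was dim, and that pair had the largest difference (-2.77). The log2 difference of wif1 was -1.69 (SE 0.36, 95% interval -2.54 to -0.83, limma adjusted p = 0.015), a fold of 3.22. With signals set no lower than the percentile it was -1.62. The call was lost without replicate 2 (adjusted p = 0.066) and without replicate 4 (adjusted p = 0.063).

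The Dickkopf family gene dkk3b (100038765), whose role in Wnt signalling is less settled than that of dkk1b, had signals of 2289, 356, 596 and 226 against 489, 441, 439 and 478. The GFP-positive arrays spanned both sides of a narrow GFP-negative range. The log2 difference was 0.32 (95% interval -0.95 to 1.59, adjusted p = 0.67), and its sign turned without replicate 1 (-0.31). The gene sfrp5 (117510), a secreted Frizzled-related protein that binds ligands, had signals of 505, 268, 454 and 372 against 183, 494, 537 and 614. These overlapped, and the difference of -0.10 (95% interval -1.17 to 0.97, adjusted p = 0.89) was above 0 after median centring, quantile normalization and cyclic loess.

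The remaining inhibitor genes, dkk1b, dkk2, frzb and sfrp1a, failed the filter. For sfrp1a (402843) the signals were 61.4, 16.1, 231 and 34.3 on GFP-positive and 199, 266, 295 and 427 on GFP-negative arrays, dim on all of the former and above the percentile on 3 of the latter. It was lower in 4 of 4 pairs, by only 0.35 on the log2 scale in pair 3, and the fractions overlapped. On the group means, with dim GFP-positive arrays set no lower than their percentile, it was at least 1.35-fold lower. The gene passed in the limma fit with no filter (log2 difference -2.43, adjusted p = 0.035). For dkk2 the signals were 177, 53.6, 164 and 50.7 against 226, 88.6, 297 and 297, lower in 4 of 4 pairs without passing that fit (adjusted p = 0.15). The gene dkk1b, an inhibitor that acts through the coreceptors, was dim on all arrays but the GFP-positive one of pair 1, and frzb was dim on all 8.

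In the cytoplasmic group, axin2 fell together with both Dishevelled genes, while axin1 and gsk3ab did not pass. The gene axin2 codes for a scaffold of the beta-catenin destruction complex and is itself a target of the canonical branch in many tissues. Its signals (58080) were 76.8, 300.4, 1128 and 100.5 on the GFP-positive and 1929, 2565, 3228 and 3325 on the GFP-negative arrays. The fractions did not overlap, and the GFP-positive arrays of pairs 1 and 4 were dim. It was at least 7.55-fold lower (log2 difference -3.58, SE 0.59, 95% interval -4.97 to -2.19, adjusted p = 0.007), and -4.26 on the log2 scale without pair 3.

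For axin1 (57931), the other scaffold gene, the log2 difference was -0.41 (95% interval -1.07 to 0.25, adjusted p = 0.30). Its GFP-positive signals of 2993, 1926, 2632 and 1797 overlapped with the GFP-negative signals of 4733, 2776, 2331 and 2749. A second axin1 probe set was lower in 4 of 4 pairs by -1.56 on average and was not called either (adjusted p = 0.093).

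The Dishevelled gene dvl2 (323630), which carries the signal from receptors into the cell, had signals of 66.5, 174, 648 and 109 against 752, 1261, 1365 and 1714. All GFP-positive signals were lower, and 2 of them were dim. It was at least 4.50-fold lower (log2 difference -2.85, SE 0.50, adjusted p = 0.008), and -3.44 on the log2 scale without pair 3. Its relative dvl3a (80972) had signals of 129.7, 151, 627 and 196 against 243, 619.5, 908 and 693. The GFP-negative array of pair 1 was low as well. The fractions overlapped, with the GFP-positive signal of pair 3 above the GFP-negative signals of pairs 1 and 2. It was at least 2.00-fold lower (log2 difference -1.32, adjusted p = 0.036). The call was lost with no replicate block at the same difference of -1.32 (adjusted p = 0.12) and with signals floored at the percentile (adjusted p = 0.086). It was also lost without replicate 2 (-1.09, adjusted p = 0.16) and without replicate 4 (-1.16, adjusted p = 0.14).

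The kinase gene gsk3ab had a log2 difference of -0.13 (95% interval -0.74 to 0.48, adjusted p = 0.73), which turned to 0.06 after median centring and 0.12 after cyclic loess. Its signals were 313, 1563, 2022 and 1758 on GFP-positive and 369, 1918, 1749.6 and 1994 on GFP-negative arrays, with both arrays of pair 1 low. The related gene gsk3ba failed the filter, with signals of 57.1 to 177 and a difference of 0.73.

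All 4 genes of the beta-catenin group were above the percentile on all 8 arrays and lower in 4 of 4 pairs, and 1 of them was called. That gene, ctnnbip1 (58117), codes for ICAT, a small protein that binds beta-catenin and blocks its contact with Tcf factors. Its signals were 1634, 2736, 4057 and 2655 on GFP-positive and 10800.1, 9323, 8842 and 8305 on GFP-negative arrays. The fractions did not overlap. The log2 difference was -1.82 (SE 0.33, 95% interval -2.60 to -1.03, adjusted p = 0.0088), a fold of 3.52, and -2.05 without pair 3.

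Beta-catenin itself, which also links cadherins to the cytoskeleton, was strongly detected in both fractions. The signals of ctnnb1 (30265) were 2202, 10049, 14120.4 and 10637 on GFP-positive and 12148, 17471, 16717 and 17947 on GFP-negative arrays. The GFP-positive array of pair 1 was far below the other 3, and the range of the rest reached into the GFP-negative range. The difference of -1.06 (95% interval -2.02 to -0.11) missed the threshold (adjusted p = 0.085), while a second ctnnb1 probe set passed it (difference -0.92, adjusted p = 0.045). With the mean of both probe sets ctnnb1 was called (difference -0.99, adjusted p = 0.049).

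For the duplicate gene ctnnb2 (324004) the signals were 13461, 8897, 18227 and 9898 against 15531, 20887, 22680.5 and 24759, and the fractions overlapped. Its log2 difference of -0.77 (95% interval -1.51 to -0.03, adjusted p = 0.10) did not pass, but did after quantile normalization (-1.03, adjusted p = 0.039) and without replicate 1 (-0.96, adjusted p = 0.034). The fourth gene, ctnnbl1, is named for its likeness to beta-catenin and is known in mammals as a splicing-associated protein. Its fractions did not overlap, and its difference of -0.55 (95% interval -1.19 to 0.09) was not called (adjusted p = 0.16).

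Of the 4 Tcf and Lef transcription factor genes, tcf7l1b and lef1 were called lower. The gene tcf7l1b (30556) codes for a factor that represses targets when beta-catenin is absent. Its signals were 734, 430.5, 904 and 319.7 on GFP-positive and 2829.6, 2865, 2253 and 3279.8 on GFP-negative arrays. The fractions did not overlap and none of the signals was dim. Its log2 difference was -2.34 (SE 0.38, 95% interval -3.25 to -1.43, adjusted p = 0.007), a fold of 5.06, and -2.68 without pair 3.

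The duplicate gene tcf7l1a (30523), whose mutant is known as headless for its forebrain defects, had signals of 413, 254, 381 and 266 against 474, 329, 292 and 346. These overlapped. The difference was -0.14 (95% interval -0.89 to 0.61, adjusted p = 0.76), and 0.05 and 0.03 after median centring and quantile normalization. The difference between the duplicates was not tested.

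The gene lef1 (30701) codes for a factor that mostly activates targets with beta-catenin. Its signals were 94.5, 150.1, 319 and 122 on GFP-positive and 453, 520.2, 339 and 366 on GFP-negative arrays. In pair 3 the fractions were nearly equal, while in the other pairs the GFP-positive array was dim. It was at least 1.83-fold lower, with a log2 difference of -1.43 (SE 0.45, 95% interval -2.49 to -0.37, adjusted p = 0.049), or -1.88 without pair 3. With the floored signals that give this bound, the limma adjusted p was 0.055. That call was lost in 8 of 12 alternatives, namely under all 3 other scalings, with no filter, with floored signals and without replicate 1, 2 or 4, with an adjusted p of up to 0.175. The gene tcf7l2 failed the filter, with signals of 121, 49.3, 128 and 26.9 against 55.4, 205, 217 and 211.

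Over all 39 genes the median difference was -0.24, -0.88, -0.53 and -0.75 in pairs 1 to 4, where that of all 15502 probe sets was 0.38, -0.04, 0.06 and -0.18. The GFP-positive signal was the lower one for 22, 35, 30 and 30 of the 39 genes in these pairs. Over the 22 tested genes, which could pass the filter by being bright in the GFP-negative fraction alone, the medians were -2.10, -1.92, -0.80 and -1.66. Pair 1 was thus nearest 0 over all genes, though the median of all probe sets was highest there (0.38), and pair 3 over the tested genes. With pair 3 left out 13 genes were called lower, and the folds of 4 of the 13 called genes (fzd7b, fzd8a, axin2 and dvl2) moved by more than 1.5 times.

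**Figure D4:**
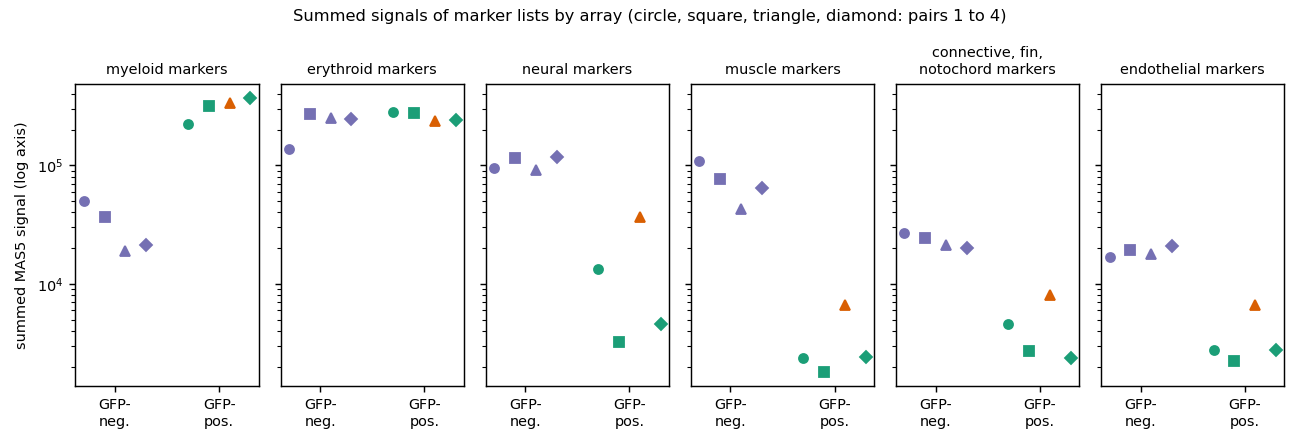
Summed MAS5 signals (log axis) of 6 marker lists on each array. Symbols give the pair, and the GFP-positive array of pair 3 is orange. Neural, muscle, connective tissue and endothelial sums are lower on all GFP-positive arrays and highest among them in pair 3.

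Other genes of the pathway were listed with earlier results of these data known, so their counts are not independent support. The tested ones could also pass the filter by being bright in the GFP-negative fraction alone. Of 105 further genes of Wnt secretion, polarity signalling, nuclear cofactors and targets, 48 were on the array and 35 were tested. Of the 35, 16 were called lower (45.7%) and 0 higher, beside 18.4% and 13% of all tested probe sets. At an unadjusted limma p under 0.05, 20 were lower and 1 higher, the kinase gene csnk1g2b, beside 26.7% and 17.4% of all tested probe sets. Their median difference over the 48 genes was -0.71. Of the 23 above the percentile on all 8 arrays 8 were called lower, beside 14.4% of all such probe sets. With no filter 17 of the 48 were called lower, beside 11.8% of all probe sets. The list holds tcf3a, which now names an E protein outside the pathway, and which was not tested.

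Among the receptors beside Frizzled, the tyrosine kinase family genes ryk and ror2 fell. Signals of ryk were 711, 125, 1185 and 117 on GFP-positive and 3242, 2107, 3448 and 3329.6 on GFP-negative arrays, at least 7.55-fold lower (adjusted p = 0.0085). Those of ror2 were 122, 50.9, 261 and 21.6 against 815, 671, 571 and 509, at least 2.94-fold lower (adjusted p = 0.011). The polarity gene prickle1b was at least 6.22-fold lower (adjusted p = 0.012). None of these 3 genes had overlapping fractions.

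Of the 5 tle and ctbp corepressor genes on the array 3 were called lower, 1 was not called and 1 was not tested. The Groucho genes tle2a and tle3b, whose products bind Tcf factors, fell by 3.72 and 2.10 on the log2 scale (adjusted p = 0.0098 and 0.012). Their relative tle3a was dim on all arrays of both fractions and not tested. The gene ctbp2a fell by 1.93 (adjusted p = 0.0073), and ctbp1 differed by -1.23 without being called (adjusted p = 0.091). The gene pygo2, which codes for a coactivator of beta-catenin, fell by 1.54 (adjusted p = 0.013). The CXXC finger gene cxxc5a fell by 2.97 (adjusted p = 0.0086) and the zinc finger gene znf703 by 2.27 (adjusted p = 0.0083).

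The Sp family gene sp5a, a known target of the canonical branch in zebrafish, had signals of 34.8, 116, 263 and 70.6 on GFP-positive and 1129, 734, 933 and 1056 on GFP-negative arrays. It was at least 4.42-fold lower (adjusted p = 0.0071), and no array of the GFP-positive fraction reached the GFP-negative range. The other 6 called genes were cdx4, ccnd1, sp5l, mycb, wls and rac1a, with adjusted p between 0.013 and 0.038. Without replicate 4 the number called lower was 9, and leaving out each pair in turn it was 9 to 17.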

How the data were processed

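The deposited table gives each probe set 1 linear signal intensity on every array. Per the submitters' processing notes these intensity values came from MAS5, of unstated version. The mean without the outer 2 percent of probe sets was 1500.26 to 1500.47 on all arrays, so the intensity values were used as deposited. Median signals were 275 to 421, and the number of arrays limits the precision. All 8 arrays differed from each other in their values.

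Of 15617 probe sets, 115 were controls and were left out. The platform annotation gave 10802 probe sets 1 symbol, 135 several and 4680 none. Symbols were updated by gene identifier, which changed no member. Of the probe sets with several symbols, 2 held a symbol that fits the rule and were left out. The annotation names no genome build for the probe sets, so no coordinates are given.

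Signals were taken to log2 without a pseudocount and fitted in R 4.3.3 by limma 3.58.1, with a variance trend in eBayes. Tests were two-sided, with Benjamini and Hochberg adjustment over 9801 probe sets. The fit had the replicate number as a block, since the titles give both arrays of a pair 1 sort number and the design text says the fractions were paired. Deviations from the group means correlated by 0.40, 0.26, 0.18 and -0.12 within pairs 1 to 4, and the GFP-positive arrays of pairs 3 and 4 each correlated best with the GFP-negative array of the other, so these pairs do not show the pairing. The procedure was tested on simulated data.

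Values on every array were given for every called member, and in each role for up to 3 tested members with the smallest p; further members were shown after their values were seen. Of the other pathway genes, the 10 called ones with the smallest p were described. The bound for genes dim on some but not all GFP-positive arrays, and the members and lists, were chosen with earlier results of these data known. Alternatives were other scalings, filters, a floor, no block, no variance trend, the mean of a gene's probe sets, and each pair left out.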

Additional observations from a re-analysis of the deposited data

Results flagged for a closer look

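In 3 of 78 groups of 4 arrays (39 genes in 2 fractions) 1 array lay far from the other 3 by Dixon's criterion, which chance meets in about 1 of 20 groups. All 3 were arrays of replicate 1. The log2 signal of gsk3ab was 8.29 on the GFP-positive array of replicate 1, against 10.61 to 10.98 on the others, and 8.53 on the GFP-negative array of replicate 1, against 10.77 to 10.96. The log2 signal of tcf7l2 was 5.79 on the GFP-negative array of replicate 1, against 7.68 to 7.76 on the others.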

How the results depend on the processing

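Between 10 and 13 of the member genes were called lower in the 13 alternatives, and 0 were called higher in any of them. With no replicate block 12 were called, and among the member genes the block changed no call but that of dvl3a; of the other pathway genes 13 were then called lower. Calls of 9 of the 13 genes held in every alternative in which they were tested; the exceptions were lef1, dvl3a, wif1 and fzd8a. Leaving out each pair in turn, 645 to 1493 of all tested probe sets were higher and 634 to 2053 lower, with the fewest without replicate 4 and without replicate 2 (680 and 732), and 9 to 17 of the other pathway genes were lower. Median centring moved the median of all tested probe sets from -0.18 to 0.01. Signs that turned belonged to uncalled genes. They were sfrp5 (0.093 after median centring, 0.077 after quantile normalization, 0.034 after cyclic loess, and -0.62 to 0.17 with a pair left out), gsk3ab (0.062 after median centring and 0.12 after cyclic loess), tcf7l1a (0.047 and 0.030 after median centring and quantile normalization), fzd9b (-0.51 with the mean of its probe sets, -0.15 to 0.33 with a pair left out) and dkk3b (-0.31 to 0.79 with a pair left out). The cause of these changes was not tested. Genes dim on most arrays, 9 of the 10 ligands among them, are limited by signal over background.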

Other observations

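Among the 12 member genes above the percentile on all 8 arrays, the spread between arrays was larger in the GFP-positive than in the GFP-negative fraction for 11 (91.7%), against 74% of the 6684 such probe sets. The median SD of their log2 signal was 0.61 among GFP-positive and 0.245 among GFP-negative arrays, and over the 6684 probe sets 0.57 and 0.35.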
